A study of Homo sapiens with 12 samples.

Results

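RNA recovered with mutant HuR was compared directly with RNA recovered with wild-type (WT) HuR, without dividing either by its input. The members are the 6 precipitate libraries of a series of 12, 3 for each form of the protein, and all 57773 genes counted in them, of which 22984 passed the filter on low counts. The cells were HuH-7, an established human hepatoma line. One stable line overexpressed WT HuR and the other expressed HuR K120/182R, a mutant that lacks a pair of lysines used for SUMOylation. Both proteins carried a V5 tag, and RNA was sequenced after immunoprecipitation with that tag (RNA immunoprecipitation, RIP) and from the same cells without precipitation (input). Each line gave 3 precipitates and 3 inputs, called WT RIP, WT input, mutant RIP and mutant input. The labels mention no removal of the cells' own ELAVL1, name 1 stable line for each form of HuR, and no mock precipitation is used here. The deposited library names also carry DMSO, a solvent, in all groups, which the labels do not describe. Whether the replicates are independent cultures is not stated, so a p-value here covers library-to-library variation that may be purely technical.

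HuR, the product of ELAVL1, is an RNA-binding protein with RNA recognition motifs that bind U-rich and AU-rich stretches, mostly in introns and 3′ untranslated regions (3′UTRs). It is known for stabilizing short-lived mRNAs such as those of cytokines, growth factors and cell cycle regulators, and it moves between nucleus and cytoplasm. In SUMOylation an enzyme cascade joins SUMO, a relative of ubiquitin, to lysine side chains, and SENP proteases take it off again. A direct comparison of precipitates asks which RNAs were more or less abundant with the mutant protein, and it reads both the binding and the abundance of an RNA in its line.

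The positions named by the mutant were located in the coding sequence of ELAVL1 transcript ENST00000407627 (chromosome 19, minus strand, GRCh37), which has 326 codons. Codons 120 and 182 both read AAG, a lysine codon, and stand in capitals in the 2 windows below, shown because they mark the residues by which the lines' proteins differ. The letters are those of the reference genome, not of the transgenes.
ELAVL1 codon 120, chr19:8038667-8038693: accatgacccagAAGgacgtagaagac
ELAVL1 codon 182, chr19:8032547-8032573: cccatcacagtgAAGtttgcagccaac

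HuR's best-known ligands are AU-rich elements, and the nonamer TTATTTATT (UUAUUUAUU in RNA) is a textbook form of them. It was searched on the transcript strand only, in the 3′UTR of 1 transcript per gene, and 9.01% of the 13910 coding genes with a 3′UTR held it. The sites below, nonamer in capitals, come from the 3′UTRs of 4 mRNAs with AU-rich elements that moved in different directions between the precipitates. CXCL1 and CXCL8, both lower in mutant RIP, and VEGFA and DDIT3, both higher, each hold at least 1 such site.
CXCL1, chr4:74736392-74736418, plus strand, 1 of 3 sites: gtcttctatTTATTTATTtattcatta
CXCL8, chr4:74608382-74608408, plus strand: tgtaaagtaTTATTTATTtgaatctac
VEGFA, chr6:43754024-43754050, plus strand: tgttatcatTTATTTATTggtgctact
DDIT3, chr12:57910400-57910426, minus strand: attgtacatTTATTTATTactgtccct
A match is a run of letters and not evidence of binding.

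The precipitates held 31774994 to 49612379 gene counts each and the inputs 52052110 to 73149117. Between 16 and 77 ng of RNA went into each RIP library. In a principal component analysis of the 6 precipitates over 11144 genes, the first component held 62.7% of the variance and separated mutant RIP (scores 14.8 to 25.2) from WT RIP (−31.25 to −13.6), with WT RIP 1 farthest out. All 15 hepatocyte markers were counted in every precipitate. Of 23 immune markers, 6 had at most 3 counts in each precipitate, among them CD45 (PTPRC) and CD20 (MS4A1), and 3 of these 6 had none (CD163, FCGR3A and TYROBP). Others were counted, such as CD3E with 108 to 179 counts and the lysozyme gene LYZ with 233 to 398. The list also holds the globin genes HBA1 (246 to 799 counts) and HBB (75 to 526), which mark red blood cells and not immune cells. LYZ was the immune marker called, higher in mutant RIP by 0.55 (adjusted p = 0.0253) and not called in the inputs (0.34), and it shares 34.7% of its exon bases with another gene. The 10 tested genes of this list summed to 14.8 to 25.6 CPM in WT RIP and 21.1 to 30.4 in mutant RIP. CPM are counts per 1000000, on the TMM-scaled library size. Of 17 stromal and endothelial markers, 6 had at most 3 counts in each precipitate and DES had none. The 7 tested had summed levels of 18.2 to 18.9 CPM in WT RIP and 24.7 to 26.5 in mutant RIP, and 2 were called: PDGFRA higher (log2 difference 0.68, and 0.71 in the inputs) and TAGLN lower (−2.27, and −2.25 in the inputs), both in loci that share over 5% of their exon bases with other genes. The part of these cell types in the results was not tested.

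A gene was called where edgeR's quasi-likelihood test gave a Benjamini-Hochberg adjusted p under 0.05 over all 22984 genes. In simulated data, described below, false calls were a larger share than this threshold allows. By this rule 4512 genes (19.6%) differed between the precipitates, 2268 higher in mutant RIP (9.87%) and 2244 lower (9.76%). A change of at least 1 on the log2 scale was seen in 560 of the higher genes (2.44%) and 421 of the lower ones (1.83%). All 3 mutant libraries lay above all 3 WT libraries for 4153 genes (18.1%) and below them for 4029 (17.5%). Without WT RIP 1 the number called was 2796, and without mutant RIP 2 it was 2953. Each value here is a level relative to the rest of its library. Scaling by total library size in place of TMM moved the median difference of all genes from 0.01 to −0.17, and of 3305 genes then called 776 were higher and 2529 lower.

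Much of this difference was also present in the inputs, with which the precipitates share no library. There 4017 genes (17.5%) were called, 1716 higher (7.47%) and 2301 lower (10%) in the mutant line. Of the genes called higher in mutant RIP, 864 were called higher in the mutant input too, which is 38.1% of the former and 50.35% of the latter. Of those called lower, 1188 were called lower in both, 52.94% and 51.63%. Opposite calls were made for 9 genes that were higher in mutant RIP and lower in its input and for 1 gene with the reverse pattern. The log2 differences of precipitates and inputs had the same sign for 88.5% of the 4512 genes called in the precipitates. Across genes, which are not independent replicates, they correlated at r = 0.66 over 11414 genes with a mean log2 CPM of at least 2.

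**Figure D1:**
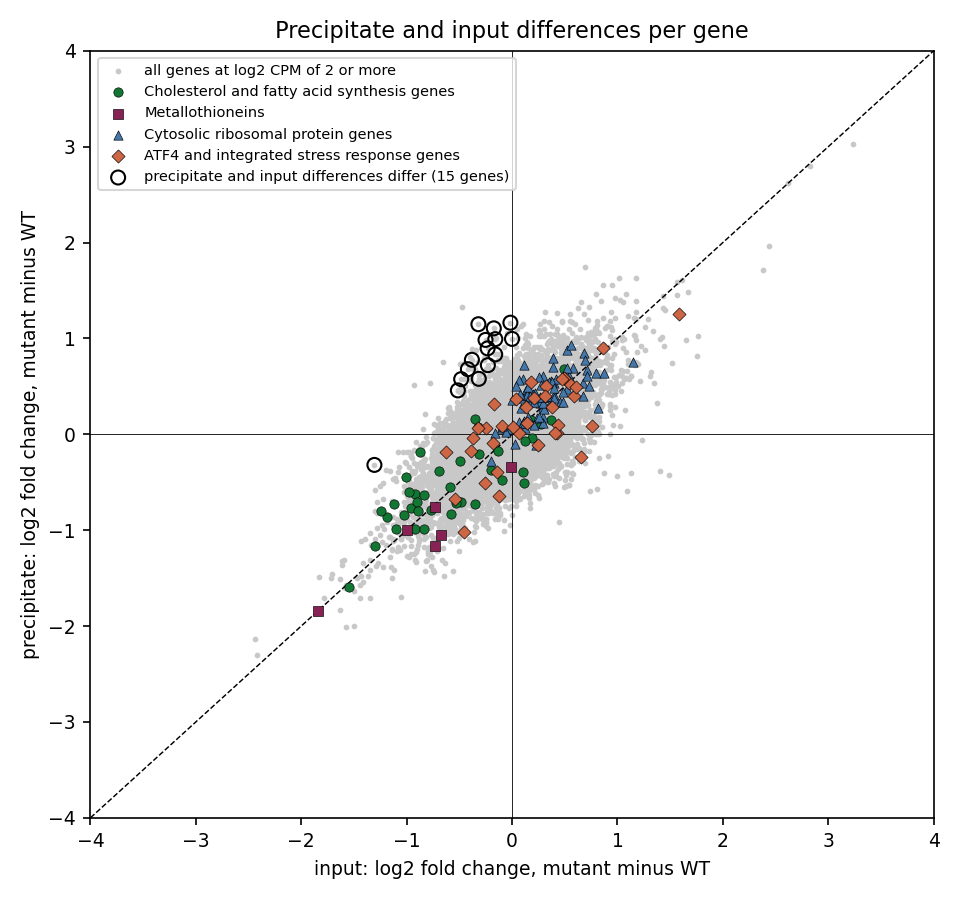
Each grey point is a gene with a mean log2 CPM of at least 2, placed by its log2 difference between the lines in the inputs (horizontal axis) and in the precipitates (vertical axis), with 4 gene lists colored and the 15 genes of the interaction test ringed. The dashed line marks equal differences. Cholesterol genes and metallothioneins lie toward the lower left, ribosomal protein genes toward the upper right, and 14 of the 15 ringed genes lie above 0 on the vertical axis and at or below 0 on the horizontal one.

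Among coding genes with a mean log2 CPM of at least 2, the 10 with the largest increases in mutant RIP were called higher in the inputs as well. PAQR5, a membrane progestin receptor (chromosome 15, 69591251 to 69700119), stood at 1.59, 1.79 and 1.70 CPM in WT RIP and at 12.5, 11.1 and 11.8 in mutant RIP. The 2 groups lay far apart, with a log2 difference of 2.80 ± 0.16 (SE, adjusted p = 3.91e-11) and of 2.82 ± 0.17 in the inputs. TSPAN8, a tetraspanin of epithelial cells (chromosome 12, 71518865 to 71835678), had 35.1, 34.6 and 33.3 CPM in WT RIP and 88.8, 111 and 109 in mutant RIP. Its difference was 1.58 ± 0.13 (adjusted p = 1.12e-08), against 1.56 in the inputs. S100P, a calcium-binding protein, rose by 1.48 ± 0.18, from 9.40 ± 2.23 CPM (SD, n = 3) to 26.3 ± 7.73. CYP2C19, a drug-oxidizing cytochrome P450, had a log2 difference of 2.62, TMEM45B of 1.96, the protease inhibitor A2M of 1.72 and the calcium-binding protein RCN1 of 1.61. PAQR5, CYP2C19, TMEM45B, A2M and RCN1 share 5.57% to 31.01% of their exon bases with other genes, so their values are uncertain. MYO1A (1.47), CARD6 (1.45) and RBM23 (1.44) completed the 10 highest coding genes.

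At the other end stood PWWP3B, a chromatin-reader family gene of the X chromosome (105412298 to 105452949). It had 9.03, 9.09 and 8.99 CPM in WT RIP and 1.59, 1.79 and 2.16 in mutant RIP, a log2 difference of −2.30 ± 0.17 (adjusted p = 1.39e-09). CTSF, the lysosomal protease cathepsin F, had 4.95, 5.46 and 5.71 CPM against 1.27, 1.24 and 1.15, a difference of −2.13 ± 0.17. SERPINA5, the protein C inhibitor of plasma (chromosome 14, 95027779 to 95059455), fell from 31.2, 31.8 and 28.3 CPM to 7.71, 9.86 and 8.01, a log2 difference of −1.83 ± 0.12 (adjusted p = 2.53e-10). None of these 3 genes had overlapping groups, which the rule for naming genes required, and their inputs differed by −2.42, −2.44 and −1.63. The actin bundler FSCN1 (−2.01), ANXA3 (−1.71), ATP6V0E2 (−1.70) and TCEAL9 (−1.64) were also among the 10 lowest coding genes, with CXCL1 and MT1F, which are described below. ATP6V0E2 shares 19.7% of its exon bases with another gene and is uncertain. Among the most counted mRNAs that fell were AFP, the fetal serum protein and hepatoma marker (−0.76 ± 0.19, from 4522 ± 236 to 2679 ± 187 CPM, SD, n = 3), S100A10 (−0.62) and the desaturase SCD (−0.83). IGF2, at −1.0, shares 44.4% of its exon bases with a readthrough gene.

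**Figure D2:**
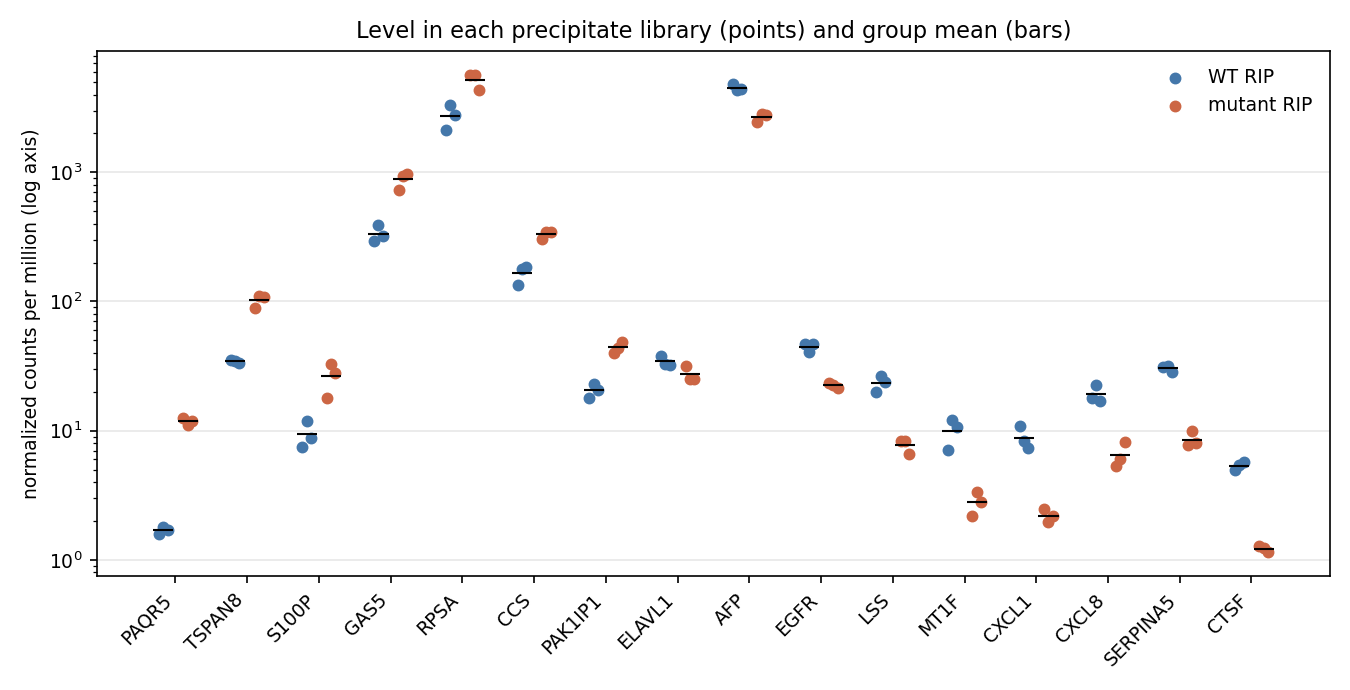
Points give the normalized CPM of 16 genes in each WT RIP (blue) and mutant RIP (orange) library on a log axis, and black bars the mean of 3 libraries. For every gene plotted the 3 libraries of a group lie on 1 side of the other group. The rule for naming genes required this of all but PAK1IP1 and ELAVL1. For ELAVL1 the lowest WT RIP library (32.5 CPM) lies just above the highest mutant one (31.6 CPM).

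Known HuR targets moved in both directions. Of 45 mRNAs listed from the literature 41 were tested, and 9 were higher and 8 lower in mutant RIP (9.87% and 9.76% of all genes), with a median log2 difference of −0.08 against 0.01 for all genes. In the inputs 7 were higher and 9 lower. CXCL8, the neutrophil chemokine interleukin-8, had 18.0, 22.8 and 17.0 CPM in WT RIP and 5.36, 6.01 and 8.17 in mutant RIP. Its difference was −1.57 ± 0.26 (adjusted p = 0.000719), with −1.44 in the inputs. EGFR, the epidermal growth factor receptor, had 46.8, 40.9 and 46.5 CPM against 23.2, 22.6 and 21.4. The difference was −1.0 ± 0.11 (adjusted p = 7.91e-07), and its inputs differed by −0.59. VEGFA, the angiogenic growth factor, rose from 20.9, 20.3 and 19.4 CPM to 27.1, 29.5 and 28.5, by 0.49 ± 0.11 (adjusted p = 0.00261). The transcription factors FOS (1.17), MYC (0.52) and JUN (0.39), the cell cycle inhibitor CDKN1A (0.61), the mitotic cyclin CCNB1 (0.50), the phosphatase DUSP1 (0.57), MDM2 (0.41) and SIRT1 (0.42) were the other higher ones. ACTB (−0.67), PLAU (−0.63), CDC42 (−0.46), MCL1 (−0.46) and VHL (−0.38) were among the other lower ones. MDM2, PLAU, CDC42, MCL1 and VHL share more than 5% of their exon bases with other genes. The 9 higher targets numbered 1 with total library size and 5 without mutant RIP 1, and the 8 lower ones numbered 5 without WT RIP 1, WT RIP 3 or mutant RIP 3. ELAVL1 itself was not called (−0.34 ± 0.12, adjusted p = 0.0561). It was called in 4 of 16 alternatives, namely with the replicate block (adjusted p = 0.0329), in the blocked fit of the precipitates alone (0.0107), with the GC trend removed (0.0194) and without mutant RIP 1 (−0.46, adjusted p = 0.0178). The counts per gene do not separate the transgene's RNA from that of the cells' own ELAVL1.

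Chemokines and other factors that senescent cells secrete moved in both directions. Of 46 listed senescence-associated factors 30 were tested, and 7 (23.33%) were higher and 9 (30.0%) lower in mutant RIP, with a median of 0.00. Of all genes tested 9.87% were higher and 9.76% lower. In the inputs 8 were higher and 5 lower. CXCL1, a neutrophil chemokine, had 10.8, 8.39 and 7.34 CPM in WT RIP and 2.47, 1.96 and 2.18 in mutant RIP. Its difference was −2.00 ± 0.20 (adjusted p = 1.63e-07), with −1.50 in the inputs. CXCL10 (−1.06) and CXCL5 (−0.86), also chemokines, and the growth factors TGFB2 (−1.22) and FGF2 (−0.92) fell with it. The protease inhibitor SERPINE2 (2.38), IGFBP4 (1.49) and the macrophage growth factor CSF1 (1.01) were higher. For CXCL10 the groups overlapped by 1 library each (1.14 CPM in WT RIP against 1.19 in mutant RIP). CXCL5, TGFB2 and FGF2 share over 5% of their exon bases with other genes. Of 34 tested genes of cell cycle arrest and the p53 response, 5 (14.71%) were higher and 11 (32.35%) lower, with a median of −0.13. The cyclin-dependent kinase inhibitors CDKN2C (−1.44), CDKN2B (−0.94) and CDKN2D (−0.89) and the p53 cofactor TP53INP1 (−1.15) fell, whereas the kinase PLK2 (1.29) and the proapoptotic PMAIP1 (1.10) rose. CDKN1A, also a cell cycle inhibitor, and MDM2 were higher, as given above with the HuR targets. For CDKN2B and CDKN2D the input differences were −0.02 and −0.25, and the test of precipitates against inputs called neither (adjusted p = 0.236 and 0.192). CDKN2C shares 20.4% of its exon bases with another gene. The 11 lower genes numbered 6 without WT RIP 1 and 7 without WT RIP 3 or mutant RIP 2.

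Genes of cholesterol and fatty acid synthesis were lower in mutant RIP as a group. Of 41 listed, 40 were tested, and 26 (65.0%) were lower and 1 (2.5%) higher, with a median of −0.58 against 0.01 for all genes. Of all genes 9.76% were lower and 9.87% higher. The inputs gave nearly the same picture, with 25 lower, 1 higher and a median of −0.64, and 22 genes were called lower in both. LSS, which closes the sterol ring, had 20.1, 26.3 and 24.0 CPM in WT RIP and 8.31, 8.29 and 6.65 in mutant RIP. The groups lay apart by −1.59 ± 0.15 (adjusted p = 1.06e-07), and LSS shares 7.88% of its exon bases with another gene. The sterol reductases TM7SF2 (−1.17 ± 0.15) and DHCR7 (−0.98 ± 0.13), the mevalonate pathway enzymes MVD (−0.98), IDI1 (−0.72) and FDPS (−0.62), squalene synthase FDFT1 (−0.84) and squalene epoxidase SQLE (−0.79) fell. So did the desaturases FADS2 (−0.99), SCD (−0.83) and FADS1 (−0.72), and INSIG1 (−0.55), which holds the sterol-sensing machinery in the endoplasmic reticulum. The transcription factor SREBF2 fell too (−0.39, inputs 0.10, interaction adjusted p = 0.236), whereas its relative SREBF1 was the member that rose (0.68, inputs 0.49). IDI1, FDPS, FADS1, FADS2, SREBF1 and SREBF2 share 5.11% to 18.6% of their exon bases with other genes. FASN, the fatty acid synthase (−0.07), was not called. The count of 26 lower genes was 2 among genes with a change of at least 1.

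**Figure D3:**
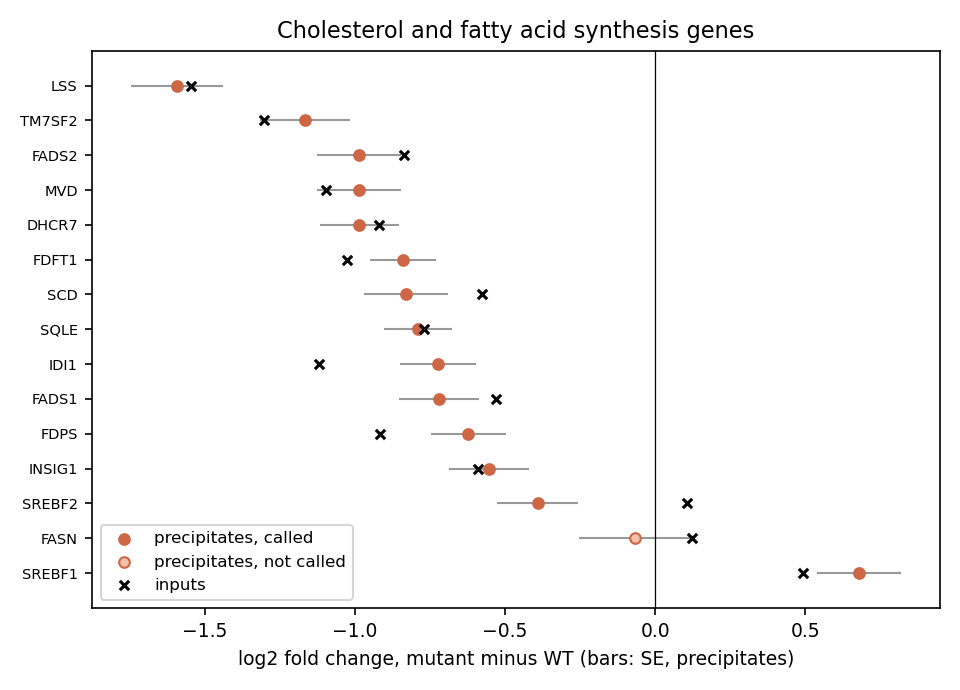
Each row is 1 of the 15 genes of cholesterol and fatty acid synthesis named in the text. Circles give the log2 difference between mutant and WT precipitates with its standard error (filled where called), and crosses that between the inputs. LSS at the top is lowest (−1.59), FASN is not called (−0.07), and SREBF1 at the bottom is the gene called higher (0.68).

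Metallothioneins, small cysteine-rich proteins that bind zinc and copper, were lower as well. Of 14 listed genes of this zinc-response list 9 were tested, and 6 (66.67%) were lower and 0 higher, with a median of −1.06. Of all genes 9.76% were lower and 9.87% higher. None was higher by DESeq2 or at an unadjusted p under 0.05 either, and edgeR called 5 lower and 0 higher in the inputs. MT1F (chromosome 16, 56691643 to 56694610) had 7.03, 12 and 10.8 CPM in WT RIP and 2.17, 3.36 and 2.82 in mutant RIP, a difference of −1.84 ± 0.19 (adjusted p = 2.14e-07) with −1.84 in the inputs. MT1M (−1.31), MT2A (−1.16), MT1X (−1.05), MT1E (−1.0) and the zinc exporter SLC30A1 (−0.76) fell with it. Because metallothionein genes resemble each other closely, reads may have been counted for the wrong copy and their separate values are uncertain. Lysosomal proteins leaned the same way, with 13 of 48 (27.08%) lower, 2 (4.17%) higher and a median of −0.18. Of these 13, 7 were lower in the inputs too. The hydrolases FUCA1 (−1.20), ARSA (−1.10) and NEU1 (−0.90), the ceramidase ASAH1 (−0.75) and the membrane protein LAMP2 (−0.77) were among the lower ones.

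Genes of the integrated stress response, the program by which ATF4 raises amino acid transport and tRNA charging, were more often higher. Of 46 listed 45 were tested, and 17 (37.78%) were higher and 5 (11.11%) lower, with a median of 0.15. Of all genes 9.87% were higher and 9.76% lower. In the inputs 11 of the 17 were called higher too. DDIT4, an inhibitor of mTOR signaling, had 4.90, 5.60 and 5.73 CPM in WT RIP and 14.8, 12.5 and 11.3 in mutant RIP, a difference of 1.25 ± 0.16 (adjusted p = 6.54e-06). DDIT3, the transcription factor CHOP, rose from 30.7 ± 0.242 to 57.4 ± 8.18 CPM (SD, n = 3), by 0.90 ± 0.12, and shares 39.6% of its exon bases with MARS1 on the opposite strand. The glutathione-degrading CHAC1 (1.42), the hormone STC2 (1.72), the cystine transporter SLC7A11 (0.53), the glutamine transporter SLC1A5 (0.59) and the tRNA synthetases AARS1 (0.55), CARS1 (0.50), MARS1 (0.40) and SARS1 (0.37) also rose. SLC7A11, SLC1A5, MARS1 and ATF5 also overlap other genes by over 5%. The transcription factors ATF5 (−0.64) and CEBPG (−0.40) and the serine synthesis enzyme PSPH (−0.68) fell. With total library size 5 were called higher and the list's median was −0.04, above the −0.17 of all genes, and without mutant RIP 2 there were 11. The cationic amino acid transporter SLC7A1, singled out after its values were seen, had 0.0993, 0.282 and 0.168 CPM in WT RIP and 4.17, 4.46 and 3.33 in mutant RIP, and the inputs differed by 4.17 on the log2 scale. Its WT RIP values lie near the floor, so the size of its change is uncertain. The filter on low counts also passes genes present in 1 group only.

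mRNAs of cytosolic ribosomal proteins moved in 1 direction only. Of 83 tested, 28 (33.73%) were higher and 0 lower by edgeR, against 9.87% and 9.76% of all genes. DESeq2 called 44 and 0, and 50 and 0 had an unadjusted edgeR p under 0.05. The median was 0.41, and 80 had a positive difference. In the inputs 18 were higher and 0 lower, with a median of 0.29, and 13 were called higher in both. RPLP0, a stalk protein of the large subunit (chromosome 12, 120634502 to 120639038), had 1441, 2293 and 1986 CPM in WT RIP and 4033, 3762 and 2751 in mutant RIP. Its difference was 0.88 ± 0.19 (adjusted p = 0.00199). RPSA (0.93), RPS23 (0.85), RPL34 (0.79), RPS24 (0.77) and RPL41 (0.61) followed the same direction. RPSA and RPS23 share more than 5% of their exon bases with other genes, and ribosomal protein genes have many processed copies that can share reads. The number higher depended on single libraries: it was 9 without WT RIP 1, 52 without WT RIP 2, 12 without WT RIP 3, 7 without mutant RIP 2 and 18 without mutant RIP 3. It was 10 with total library size, with a median of 0.23, 17 in a fit of the precipitates alone and 51 in that fit with a replicate block. Cytosolic and mitochondrial chaperones were higher in 8 of 41 (19.51%) and lower in 2 (4.88%), with a median of 0.15. HSP90AA1 (0.52, inputs −0.02), CHORDC1 (0.65, inputs −0.05) and DNAJB6 (0.63, inputs 0.02) were called in the precipitates alone, but the test of precipitates against inputs called none of them (HSP90AA1 adjusted p = 0.21, CHORDC1 0.109, DNAJB6 0.125). With total library size 1 chaperone was called higher and the median was −0.03.

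Several host transcripts of small nucleolar RNAs (snoRNAs) were higher among the long noncoding RNAs. Many such hosts begin, like ribosomal protein mRNAs, with a run of pyrimidines. Of 34 tested in a list of nuclear and cancer-associated long noncoding RNAs 16 (47.06%) were higher and 3 (8.82%) lower, with a median of 0.50. Of all genes 9.87% were higher and 9.76% lower. In the inputs 13 of the 16 were called higher as well. GAS5, a growth-arrest transcript that carries snoRNAs in its introns, had 296, 390 and 321 CPM in WT RIP and 730, 940 and 973 in mutant RIP. The difference was 1.39 ± 0.17 (adjusted p = 2.89e-06), and GAS5 shares 9.06% of its exon bases with another gene. SNHG8 (1.20), ZFAS1 (1.05), SNHG5 (1.02), SNHG15 (0.96) and SNHG1 (0.89), all snoRNA hosts, rose with it, as did PVT1 (1.56). NORAD, which binds Pumilio proteins (−0.45), TUG1 (−0.72) and LINC00261 (−0.48) fell. SNHG8, ZFAS1, SNHG5 and TUG1 share over 5% of their exon bases with other genes.

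The snoRNAs guide chemical modification of ribosomal RNA, and those called between the precipitates were higher in mutant RIP. Of 127 tested of the C/D box family 24 were higher and 0 lower, with a median of 0.57, and of 115 of the H/ACA family 22 were higher and 0 lower, also with a median of 0.57. At an unadjusted p under 0.05, 0 and 1 were lower, and DESeq2 called 0 lower in both families. The inputs had medians of 0.36 and 0.14, and 3 and 4 of the higher ones were called there too. Most snoRNAs lie within other genes, and many fall inside annotated exons. SNORD6 and SNORD14E share no exon base with another annotated gene and are shown here with the box C (TGATGA) and box D (CTGA) letters in capitals.
SNORD6, chr11:93464668-93464740, minus strand: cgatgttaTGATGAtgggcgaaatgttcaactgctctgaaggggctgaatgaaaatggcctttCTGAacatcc
SNORD14E, chr11:122928785-122928869, minus strand: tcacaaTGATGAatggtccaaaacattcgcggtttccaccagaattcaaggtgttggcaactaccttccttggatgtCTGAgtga
SNORD6 had 5.94, 8.48 and 8.74 CPM in WT RIP and 14.2, 15.3 and 17.7 in mutant RIP, a difference of 1.02 ± 0.18 (adjusted p = 0.000207), while its inputs held 0.0858 to 0.262 CPM. SNORD14E rose by 0.88 ± 0.21 (adjusted p = 0.00465), from 10.03 ± 2.51 to 18.5 ± 2.13 CPM (SD, n = 3). The vault RNA VTRNA1-3, a component of the vault particle, had 12.4, 26.3 and 20.4 CPM in WT RIP and 41.6, 63.8 and 77.9 in mutant RIP, 1.63 ± 0.34 apart (adjusted p = 0.00843). Its inputs differed by 1.18 and were not called (adjusted p = 0.0659), and the interaction test did not call it (adjusted p = 0.772). Its sequence of 89 bases is given to set beside the snoRNAs.
VTRNA1-3, chr5:140105743-140105831, plus strand: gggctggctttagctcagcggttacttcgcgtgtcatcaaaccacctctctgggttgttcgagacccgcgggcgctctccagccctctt
The higher snoRNA counts numbered 9 (C/D) and 12 (H/ACA) without WT RIP 1, 15 and 14 without mutant RIP 2, and 13 and 13 without mutant RIP 3. They numbered 41 and 38 with a replicate block and 56 and 49 in a blocked fit of the precipitates alone, and 38 H/ACA snoRNAs were higher in a fit of the precipitates without the block. By class, 51 of 284 snoRNAs (17.96%), 18 of 135 annotated snRNAs (13.33%) and 5 of 222 other structural RNAs (2.25%) were higher, against 9.87% of all genes. In the same order, 0, 1 and 0 were lower (0, 1 and 1 by DESeq2, and 2, 2 and 3 at an unadjusted p under 0.05). The snRNA class includes copies such as RNU5A-8P, and how multiply mapping reads were treated is not given. As a share of all counts snoRNAs held 0.385% to 0.638% in WT RIP and 0.525% to 0.820% in mutant RIP, ranges that overlap (exact permutation test, two-sided, p = 0.20, where 3 against 3 libraries cannot give less than 0.10).

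Liver transcription factors, which set hepatocyte identity, were more often lower than higher in mutant RIP. Of 34 tested 4 (11.76%) were higher and 12 (35.29%) lower, with a median of −0.22. Of all genes 9.87% were higher and 9.76% lower. The inputs had 4 higher, 4 lower and a median of 0.04. HNF4A, the nuclear receptor that governs hepatocyte genes (chromosome 20, 42984339 to 43061485), had 107, 89.0 and 94.1 CPM in WT RIP and 71.4, 53.8 and 53.1 in mutant RIP. Its difference was −0.70 ± 0.14 (adjusted p = 0.0011), and separate groups in the precipitates were a condition for naming it. Its inputs held 123, 120.5 and 154 CPM against 140, 112 and 108, which overlap. The difference between these 2 differences was −0.56 ± 0.20 and was not called (adjusted p = 0.218). FOXA1 (−0.65, inputs −0.23), RXRA (−0.61, inputs 0.05), CEBPA (−0.39, inputs −0.16) and PROX1 (−0.42, inputs −0.16) were also lower in mutant RIP, and the bile acid receptor NR1H4 (0.79) was higher. The test of precipitates against inputs called none of these factors. CEBPA shares 43.9% of its exon bases with another gene. The 12 lower factors numbered 5 without WT RIP 1 or mutant RIP 2 and 7 without mutant RIP 3. Plasma carrier and acute-phase proteins were lower in 9 of 27 tested (33.33%) and higher in 3 (11.11%), with a median of −0.35. The 15 hepatocyte markers summed to 6368 to 6609 CPM in WT RIP and 4151 to 4612 in mutant RIP, mostly through AFP. From precipitates alone, fewer cells expressing a gene, less of its RNA per cell and less recovery with the mutant protein cannot be told apart.

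Other lists had called members in both directions. Of all genes tested 9.87% were higher and 9.76% lower. SUMO pathway genes were higher in 4 (14.81%) and lower in 2 (7.41%) of 27 tested, with a median of −0.01. UBA2, a subunit of the SUMO E1 enzyme, had 147, 153 and 167 CPM in WT RIP and 228, 223 and 232 in mutant RIP (0.55 ± 0.12, adjusted p = 0.00201). The SUMO proteases SENP6 (0.45) and SENP1 (0.40) and the E3 ligase RANBP2 (0.43) were higher, and the modifier SUMO3 (−0.72) was among the lower ones. SENP1 shares 5.48% of its exon bases with another gene. UBA2, SENP6 and SENP1 were not called with total library size, at 0.36, 0.27 and 0.22. Other proteins that bind AU-rich elements or mRNAs were higher in 1 (2.86%) and lower in 5 (14.29%) of 35. TIAL1 (0.72, inputs 0.00, interaction adjusted p = 0.107) was higher. ZFP36L2 (−0.85), PABPC1 (−0.51), FMR1 (−0.44) and KHSRP (−0.42) were among the lower ones. ZFP36L2, an mRNA decay factor, shares 22.4% of its exon bases with another gene. Among apoptosis regulators 2 of 31 (6.45%) were higher and 6 (19.35%) lower. BCL2L1, which encodes BCL-XL and overlaps another gene over 41.3% of its exon bases, had −0.63 ± 0.13 in the precipitates and 0.01 in the inputs. The interaction test did not call this difference (adjusted p = 0.139). Of 23 epithelial-mesenchymal transition genes 6 (26.09%) were higher and 6 (26.09%) lower. Of 35 collagens, laminins and integrins 5 (14.29%) were higher and 8 (22.86%) lower. Of 44 S phase genes 3 (6.82%) were higher and 8 (18.18%) lower, and of 46 G2 and mitosis genes 5 (10.87%) and 9 (19.57%). Of 35 immediate early genes 7 (20.0%) were higher and 7 (20.0%) lower. Of 75 nuclear-encoded respiratory chain subunits 5 (6.67%) were higher and 3 (4.0%) lower. Of 13 mitochondrially encoded mRNAs 0 were called by edgeR or DESeq2, and 0 had an unadjusted p under 0.05. A positive precipitate difference was seen in 0 of them, with medians of −0.16 in the precipitates and 0.10 in the inputs. The interaction test called 0 of them.

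**Figure D4:**
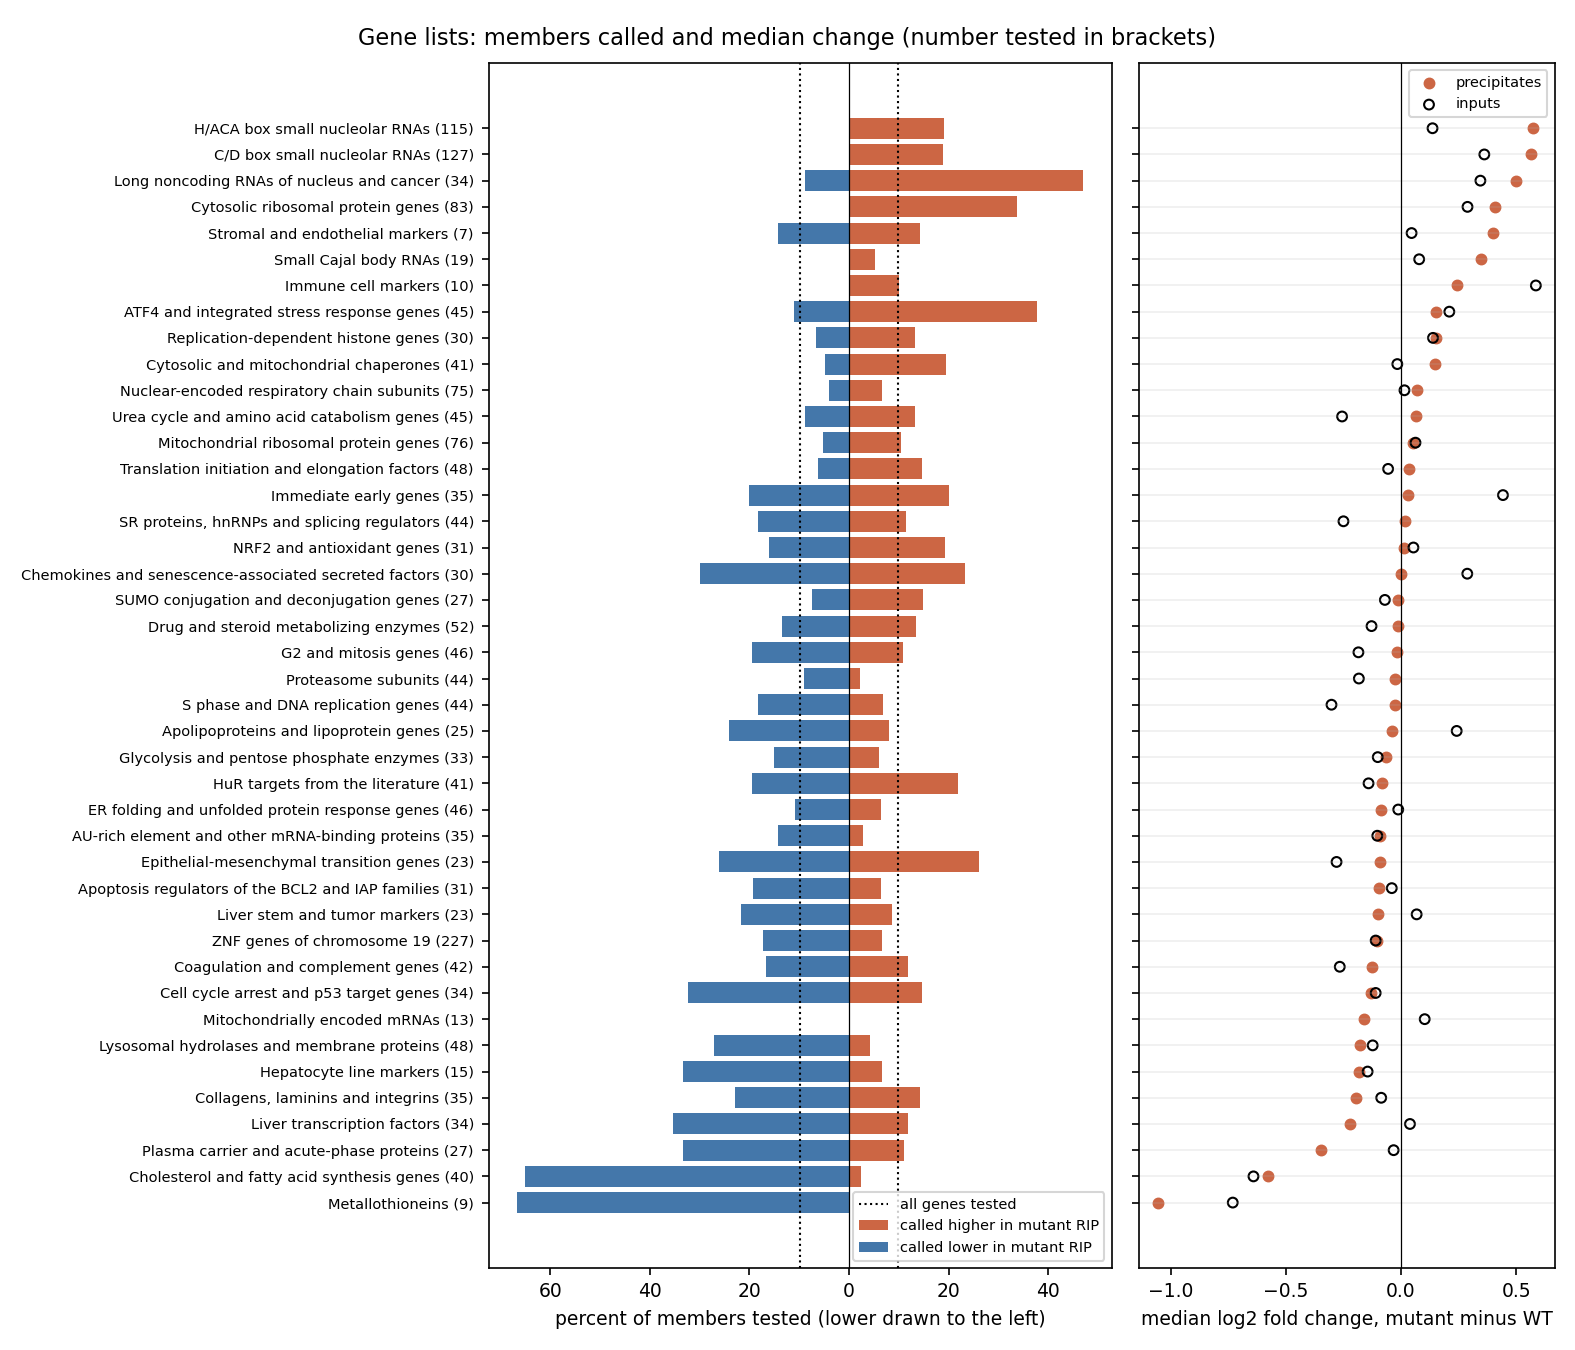
Left, bars give the percentage of tested members of each list called higher (orange, right) or lower (blue, left) in mutant RIP, and dotted lines the 9.87% and 9.76% of all genes. Right, the median log2 difference of each list in the precipitates (filled) and inputs (open). Metallothioneins and cholesterol and fatty acid synthesis genes have the longest bars to the left (66.67% and 65.0%), and the long noncoding RNA list the longest to the right (47.06%).

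Coding genes called lower in mutant RIP had longer 3′UTRs than the other coding genes. The median 3′UTR, in 1 transcript per gene, was 1878 bases long in genes lower in mutant RIP, 1176 in those higher and 1110 in those not called. Of the coding genes with a 3′UTR under 659 bases 7.45% were lower, and of those with at least 2030 bases 18.79%, while the share higher was 11.78% and 11.21%. A run of 7 U was present in the 3′UTR of 63.64% of lower, 50.92% of higher and 46.52% of uncalled genes, and a longer 3′UTR has more places for such a run. Per kilobase of 3′UTR the median number of runs was 0.961, 0.272 and 0.0 and the mean 2.47, 2.38 and 2.37. The shorter motif AUUUA was present in 80.19% of lower, 74.78% of higher and 68.8% of uncalled genes, with a median per kilobase of 1.83, 2.08 and 1.57. The nonamer shown above was present in 10.3%, 8.88% and 8.80%. The median log2 difference fell from 0.05 in the third with the shortest 3′UTRs to −0.08 in the longest in the precipitates and from 0.07 to −0.14 in the inputs. These are descriptions across genes, which share libraries, and longer 3′UTRs go with longer transcripts. The called and uncalled genes were not matched for expression level.

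In 15 genes (0.0653%) the difference between the precipitates differed from that between the inputs by edgeR's interaction test, and in all 15 it was the higher of the 2. At an unadjusted p under 0.05, 1747 genes had the higher difference in the precipitates (7.6%) and 1258 the lower (5.47%), and DESeq2's test called 331 and 58. PAK1IP1, a nucleolar protein of ribosome assembly (chromosome 6, 10695205 to 10710015), had 18.0, 22.9 and 20.7 CPM in WT RIP and 40.1, 43.8 and 48.7 in mutant RIP. Its inputs held 16.9, 14.1 and 12.9 CPM in the WT line and 11.2, 13.9 and 13.9 in the mutant line, which overlap. The precipitates thus differed by 1.10 ± 0.13 and the inputs by −0.17 ± 0.14, and the difference of the 2 was 1.28 ± 0.19 (adjusted p = 0.0115). CCS, the copper chaperone of superoxide dismutase, rose from 134, 180 and 184 CPM to 302, 344 and 345 in the precipitates, while the inputs stood at 54.9 ± 3.25 and 54.9 ± 1.84 CPM (SD, n = 3). Its difference of differences was 0.996 ± 0.19 (adjusted p = 0.0369). EMC2, a membrane protein insertase subunit, and HAT1, a histone acetyltransferase, were higher in mutant RIP (0.57 and 0.46) and lower in the mutant input (−0.48 and −0.51). SKAP2, an adaptor protein, was lower in the mutant input (−1.31 ± 0.14) and not called in the precipitates (−0.32 ± 0.13, adjusted p = 0.0817). Without WT RIP 1 or mutant RIP 3 0 genes were called by this test (1310 and 1487 had the higher difference at an unadjusted p under 0.05), without mutant RIP 2 there was 1, and without WT RIP 3 there were 64. PAK1IP1 passed in 17 of 20 alternative analyses, and the other genes in 9 to 12.

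**Figure D5:**
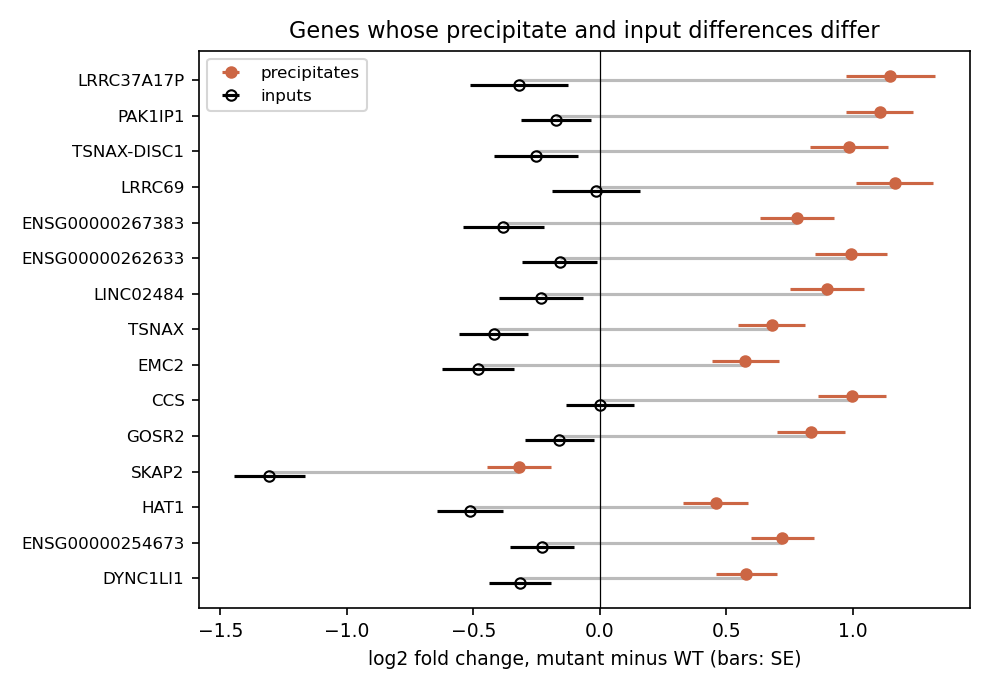
For the 15 genes called by the interaction test, filled points give the log2 difference between mutant and WT precipitates and open points that between the inputs, with standard errors. In each row the filled point lies to the right of the open one, and for SKAP2 both lie below 0.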

How the data were processed

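RNA-seq gene counts of 12 HuH-7 libraries were used, 3 per group, as described above. The deposited values are the authors' raw counts per Ensembl gene and library. The submitters' processing notes name bcl2fastq 2.20.0.422, cutadapt, STAR 2.4.0j, featureCounts 1.6.4 and hg19; the annotation release, strand setting and treatment of multiply mapping reads are not given in the sources used here. Stranded total RNA kits were used, per the labels' protocols. Of 57773 identifiers 55538 matched GENCODE release 44 placed on GRCh37, from which positions and sequences come; gene names that overlap by more than 5% of exon bases are called uncertain.

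Analysis used R 4.3.3, edgeR 4.0.16, DESeq2 1.42.0, Python 3.11.15, pandas 2.3.3 and matplotlib 3.10.9. Genes were kept by filterByExpr (minimum count 10, total 15), which also passes genes present in 1 group only. All 12 libraries entered 1 robust quasi-likelihood fit with 4 group coefficients, 8 residual degrees of freedom and TMM scaling (factors 1.32 to 1.78 in precipitates, 0.526 to 0.909 in inputs), so that the groups share an estimate of the spread. Adjusted p-values are Benjamini-Hochberg values over 22984 genes. CPM are counts per 1000000 of TMM-scaled library size. Replicate pairs differed by more than counting noise (chi-square per degree of freedom of at least 15.0), so none was merged. The fit was tested on simulated data in which 200 of 21799 genes were changed in mutant RIP. It recovered 57% of log2 changes of 1 and 8% of those of 0.5. The median fitted sizes were 1.03 and 0.44, close to those set. Of 78 calls 13 were false, a larger share than the threshold allows.

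Members and gene lists were chosen with earlier results of these data known, and the snoRNA families were listed by name pattern after the counts were seen. Most named genes had to be called, to reach 2 in mean log2 CPM and to have groups without overlap. These were the 10 highest and lowest coding genes, 5 of other classes and the 5 most abundant each way, and up to 4 per list. A call and separate groups in the precipitates were not required of 5 genes for the interaction or of ELAVL1. Fewer are named, some genes are not reported here, and further list members are given with their values. Alternatives were other scalings, tests, filters and fits, a replicate block, GC correction, and leaving out each library.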

Additional observations from a re-analysis of the deposited data

Results flagged for a closer look

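In 15 genes the difference between the mutant and WT lines was not the same in precipitates and inputs, by a test of the difference itself. As the precipitate difference minus the input difference on the log2 scale, LRRC37A17P had 1.47, PAK1IP1 1.28, TSNAX-DISC1 1.24, LRRC69 1.18, ENSG00000267383 1.16, ENSG00000262633 1.15, LINC02484 1.13, TSNAX 1.10, EMC2 1.06, CCS 0.996, GOSR2 0.99, SKAP2 0.99, HAT1 0.97, ENSG00000254673 0.95 and DYNC1LI1 0.89. The adjusted p was 0.0115 for PAK1IP1, 0.0424 for LRRC69 and LINC02484 and 0.0369 for the others. The 15 are fewer than 15 loci: ENSG00000262633 overlaps GOSR2 and LRRC37A17P, TSNAX-DISC1 overlaps TSNAX, and ENSG00000254673 lies in exons of FNTA, so reads may be counted for more than 1 of them. Genes of these loci, LINC02484 and LRRC69 were higher in mutant RIP, at 0.68 to 1.16, and were not called in the inputs except TSNAX (−0.42, adjusted p = 0.0346). Genes without a symbol are named because of this test, after their values were seen.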

How the results depend on the processing

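Of 182 named genes, 137 kept their direction and their side of the threshold in each of 16 alternatives, and none changed direction. Of 96 calls lost, 30 were lost with total library size, and 7 were gained, 4 for ELAVL1 and 3 for SKAP2. The cause of the changes below was not tested. The 4512 calls between precipitates ranged from 2796 to 4308 when single libraries were left out, and were 981 with a log2 limit of 1. The share of calls that were higher was 50.3%, 60.3% with TMM from coding genes and 23.5% with total library size. With the replicate number as a block 4574 genes were called, and in a blocked fit of the precipitates alone 6343. Same-numbered RIP libraries deviated together at r = 0.357, 0.612 and 0.0441 for numbers 1, 2 and 3. WT RIP 1 and mutant RIP 2 were at −0.455, and WT RIP 2 and mutant RIP 1 at −0.452. WT RIP 3 correlated best with mutant RIP 1, at 0.158. Same-numbered inputs of the 2 lines were at −0.355, 0.163 and −0.521. Numbers 1 and 2 thus went together in the precipitates and number 3 did not. Whether the numbers mark a shared batch was not tested. The 4017 calls between inputs were 7208 with total library size (386 higher, 6822 lower, median of all genes −0.43), 934 with a log2 limit of 1 and 2195 to 3757 without single libraries, lowest without WT input 1. The 15 interaction calls were 105 with total library size, 25 with TMM from coding genes, 389 with DESeq2's test, 185 with no filter, 1 with the strict filter, 23 with the replicate block, 49 with the GC trend removed, 9 with the log2 limit, and 0 to 75 without single libraries. Among gene lists, the counts of cholesterol genes and metallothioneins stayed within 1.5 times except for cholesterol genes under the log2 limit. Depth limits genes near 1 CPM, and snoRNAs under 1 CPM in the inputs.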
